A study of Mus musculus with 12 samples.

Results

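*Tnfsf11*, *Tnfrsf11b*, *Csf1*, *Il34*, *Il6* and *Lgr4*, the genes through which osteoblasts and their stromal relatives act on osteoclasts, were read in all 12 RNA-Seq libraries of the series. They were chosen by name for this role, by a rule that uses no measured value but was written with earlier results of these data known, and are 6 of the 23284 genes listed for sorted osteoblasts and of the 24346 listed for MC3T3-E1 cells. *Tnfsf11* encodes RANKL, the ligand of the receptor activator of NF-κB (RANK), and *Tnfrsf11b* encodes osteoprotegerin (OPG). *Csf1* encodes macrophage colony-stimulating factor (M-CSF).

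The first 6 libraries came from osteoblasts of female Col2.3-ECFP mice, in which a fragment of the type I collagen promoter drives a cyan fluorescent protein in mature osteoblasts. The mice were 12 weeks old at the start and received vehicle (PBS, 3 libraries) or PTH(1-34), the amino-terminal fragment of parathyroid hormone (3 libraries), for 3 weeks, with a daily dose of 40 µg/kg given 5 days in each week. Both groups carried the reporter, and 24 h after the last injection live cells without lineage or CD45 markers and with cyan fluorescence were sorted from digested bone. The other 6 came from MC3T3-E1 cells, a clonal osteoblastic line from mouse calvaria, transduced with an empty retroviral vector (mock, 3 libraries) or with the same vector carrying mouse *Slpi* cDNA (*Slpi*-overexpressing, 3 libraries) and selected with puromycin. *Slpi* encodes secretory leukocyte protease inhibitor. The first experiment asked which osteoblast transcripts respond to PTH, and the second asked how *Slpi* in osteoblasts could bear on their contact with osteoclasts. The methods say in general that biological replicates were taken from different mice, without tying this to the RNA-Seq, and the sources used here do not say it of the MC3T3-E1 cultures, so *p* values measure the spread between these libraries, which may be technical.

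Osteoclasts form from myeloid precursors when RANKL, on the surface of osteoblast-lineage cells or shed from it, binds its receptor RANK on the precursor. OPG is a soluble decoy that binds RANKL and keeps it from RANK, so the ratio of RANKL to OPG is the usual summary of what a bone-forming cell offers to precursors. M-CSF and interleukin-34 (IL-34) are the ligands of CSF1R, the receptor that keeps precursors alive and dividing. IL-6 acts through gp130 and raises RANKL in osteoblast-lineage cells. LGR4 is a receptor for R-spondins that is also described as a second receptor for RANKL on osteoclast precursors. PTH signals through the cAMP pathway, and continuous exposure to it is known for raising RANKL and lowering OPG, while intermittent injection builds bone.

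Values were FPKM, read numbers scaled to the length of the transcript and to the size of the library, so levels of different genes can be set side by side. Each experiment was normalised on its own. The smallest step between FPKM of low genes, taken as 1 read, implied 4550000 to 8130000 reads per library in sorted osteoblasts and 22600000 to 26000000 in MC3T3-E1 cells. Such numbers cover counting error only and may be too low. *Slpi* itself lay between 1.64 and 2.62 FPKM in the vehicle libraries and between 19.8 and 37.5 in the PTH libraries. It lay between 377.2 and 395.6 FPKM in mock and between 1848 and 2105 in *Slpi*-overexpressing cells, where reads of the vector and of the cell's own gene cannot be told apart. The sorted cells carried the osteoblast genes *Bglap* (6963 to 14280 FPKM) and *Sp7* (59.2 to 115.9 FPKM), whereas *Bglap* reached only 1.05 to 2.85 FPKM in MC3T3-E1 cells. *Col1a2*, a collagen gene that every osteoblast uses, was listed at 0 in 4 of the 6 sorted libraries, so a listed 0 in these files can be a failed estimate. No member was listed at 0 in any library.

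Markers of other cells stood apart in some sorted libraries. Summed FPKM of 6 T cell genes in replicates 1, 2 and 3 was 141.5, 132.8 and 90.4 with vehicle, against 12.96, 18.2 and 1.07 with PTH. The PTH replicate 2 library held 1501 FPKM of muscle genes, against at most 12.6 in the others. Neutrophil genes summed to 346.5 to 433.5 FPKM with vehicle and to 2164, 1819 and 644 with PTH. Of 4 chondrocyte genes 3 rose with PTH at a limma adjusted *p* under 0.05, all but *Col2a1*, where 6.38% of all tested genes rose. Of 7 osteoblast genes 2 rose, *Alpl* and *Spp1*. In MC3T3-E1 cells every T cell, B cell, endothelial and muscle marker stayed below 1 FPKM in all libraries. In such bulk libraries fewer cells of a type and less RNA per cell cannot be told apart.

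Promoters of the members are shown because PTH acts on transcription through cAMP and the factor CREB, whose half-site is TGACG. RefSeq (GRCm38.p6) gave the 250 bases before the start for 4 of the 6 members, with no entry for *Tnfrsf11b* and *Il34*. The window of *Tnfsf11*, chr14:78308044-78308293 on the minus strand, and that of *Il6*, chr5:30012864-30013113 on the plus strand, are printed 5′ to 3′ along the gene, and capitals mark a motif match.
Tnfsf11: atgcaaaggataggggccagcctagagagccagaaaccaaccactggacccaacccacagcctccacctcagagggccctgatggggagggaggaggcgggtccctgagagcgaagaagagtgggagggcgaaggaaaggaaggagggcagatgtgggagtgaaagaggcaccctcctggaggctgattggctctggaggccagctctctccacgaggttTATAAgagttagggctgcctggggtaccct
Il6: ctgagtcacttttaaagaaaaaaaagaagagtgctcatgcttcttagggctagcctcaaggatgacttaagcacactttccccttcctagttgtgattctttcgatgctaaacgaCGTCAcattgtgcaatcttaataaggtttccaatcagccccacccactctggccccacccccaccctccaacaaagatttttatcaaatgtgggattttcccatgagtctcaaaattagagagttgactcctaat
The capitals in the *Tnfsf11* window are a TATA box (TATAA, searched on the gene's strand), which begins 30 bases before the start and is found in 16.0% of all 32851 windows of this length. The capitals in the *Il6* window are CGTCA, the half-site TGACG read on the other strand, which begins 135 bases before the start. TGACG on either strand is found in 17.8% of the windows, and *Tnfsf11*, *Csf1* and *Lgr4* hold no such letters in theirs. A match is a description of the letters and not a site, and regulation of *Tnfsf11* is known to use enhancers far upstream.

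*Tnfsf11* fell in PTH-treated osteoblasts. The gene lies at chr14:78277445-78308043 on the minus strand of mm10 and has 1 protein-coding transcript of 5 exons in GENCODE M21. It measured 11.8, 13.03 and 12.3 FPKM in vehicle replicates 1, 2 and 3, about 154, 133 and 212 reads. It measured 6.49, 7.76 and 6.11 FPKM in PTH replicates 1, 2 and 3, about 94, 127 and 111 reads. Every PTH library was below every vehicle library, and the means were 12.4 ± 0.619 and 6.78 ± 0.863 FPKM (SD, n = 3), so that the PTH mean was 0.548 of the vehicle mean. On the log2(FPKM + 1) scale the change was -0.79 (SE 0.123, 95% interval -1.08 to -0.50; limma, adjusted *p* = 0.0168). The exact permutation test of the means gave *p* = 0.1, the smallest that 3 against 3 allow.

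Of the 13004 genes tested in sorted osteoblasts, 8.85% fell and 6.38% rose at an adjusted *p* under 0.05, 15.2% in all. Groups did not overlap for 40.4% of the tested genes, with PTH lower for 20.9% and higher for 19.5%. By its log2 change *Tnfsf11* ranked 1114 from the most decreased of the 13004, and it was the only member called here. The call was lost without vehicle replicate 1 (-0.82, adjusted *p* = 0.0768) or vehicle replicate 2 (-0.75, adjusted *p* = 0.0808), in fits where 1 and 0 of all tested genes passed by limma and 3181 and 3053 had an unadjusted *p* under 0.05. The call held without PTH replicate 2, the library with muscle genes (-0.87, adjusted *p* = 0.0255), and without PTH replicate 3, the library lowest in T cell markers (-0.72, adjusted *p* = 0.0208).

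T cells are a known source of RANKL, and their markers moved with *Tnfsf11*, although the gate for cells without lineage and CD45 markers should remove them. Of the 6 T cell genes tested, 5 fell with PTH, where 8.85% of all tested genes fell. *Cd3g*, which made up most of the vehicle sums, went from 60.4 to 97.5 FPKM with vehicle to 0 to 10.7 with PTH. *Cd2* was the exception, at 0.501, 1.91 and 0.499 FPKM with vehicle and 0.299, 0.533 and 0.477 with PTH (limma, adjusted *p* = 0.406). The PTH mean of the summed list was 0.0884 of the vehicle mean, while that of *Tnfsf11* was 0.548. Within the PTH group *Tnfsf11* (6.49, 7.76 and 6.11 FPKM in replicates 1, 2 and 3) followed the order of the T cell sum (12.96, 18.2 and 1.07 FPKM), and within the vehicle group (11.8, 13.03 and 12.3 against 141.5, 132.8 and 90.4 FPKM) it did not. Osteocytes are another known source, and their 6 markers summed to 886.8 to 1043 FPKM with vehicle and 1081 to 1348 with PTH, with 0 of 5 tested genes called by limma (2 at an unadjusted *p* under 0.05) and *Fgf23* below 1 FPKM throughout. *Dmp1*, at 744.9 to 873.6 FPKM with vehicle and 922.7 to 1169 with PTH, set most of that sum, while *Mepe* measured 5.94, 4.18 and 3.81 FPKM with vehicle and 2.18, 1.78 and 4.01 with PTH. The part of either cell type in the change of *Tnfsf11* was not tested.

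**Figure D1:**
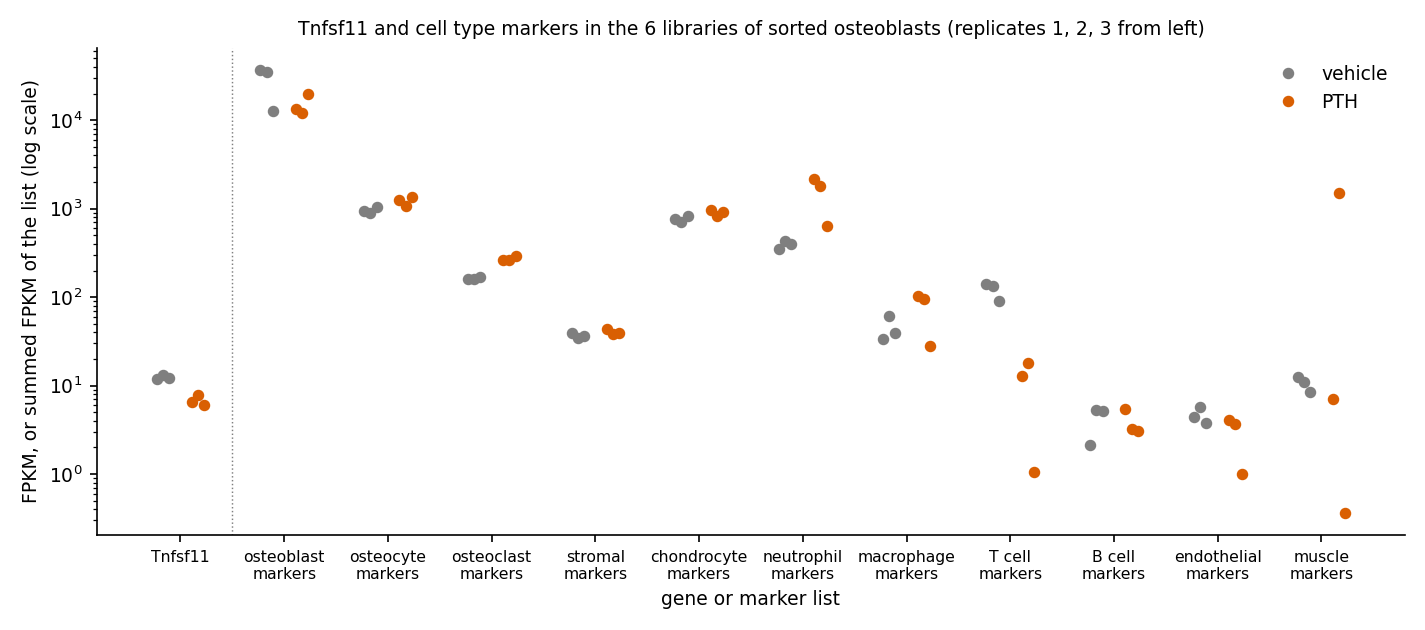
FPKM of *Tnfsf11* and summed FPKM of the marker lists (vertical axis, log scale) in the 3 vehicle (grey) and 3 PTH (orange) libraries of sorted osteoblasts, replicates 1, 2 and 3 from left to right. *Tnfsf11* and the T cell list are lower in every PTH library, the neutrophil and osteoclast lists are higher, and PTH replicate 2 stands apart in muscle genes at 1501 FPKM. The osteoblast sum is set by *Col1a2*, listed at 0 in 4 libraries. The osteoclast sum is mostly *Ctsk*, at 134.3 to 154.4 FPKM with vehicle and 225.1 to 282.3 with PTH, and the other tested osteoclast markers differed in sign.

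*Tnfrsf11b*, the decoy, was the highest of the members in sorted osteoblasts and did not pass the test after PTH. It lies at chr15:54250619-54278484 on the minus strand and also has 1 protein-coding transcript of 5 exons. Its FPKM was 25.1, 22.1 and 27.6 with vehicle and 34.6, 29.1 and 27.1 with PTH, 284 to 632 reads per library. The lowest PTH library lay below the highest vehicle library, and the means were 24.9 ± 2.74 and 30.3 ± 3.84 FPKM (SD, n = 3). The log2 change was 0.27 (SE 0.132, adjusted *p* = 0.202), and its 95% interval of -0.04 to 0.58 spans folds of 0.970 to 1.49.

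In MC3T3-E1 cells *Tnfrsf11b* rose with *Slpi*, while *Tnfsf11* was hardly expressed in either group. *Tnfrsf11b* measured 7.66, 7.64 and 6.87 FPKM in mock and 43.3, 52.5 and 46.2 FPKM in *Slpi*-overexpressing cells, 459 to 562 and 2810 to 3343 reads. The means were 7.39 ± 0.448 and 47.3 ± 4.72 FPKM (SD, n = 3), a 6.40-fold rise. On the log2(FPKM + 1) scale the rise was 2.52 (SE 0.0718, 95% interval 2.36 to 2.69; limma, adjusted *p* = 1.7e-07), the 14th largest rise of the 11466 genes tested. At the same threshold 31.9% of these genes rose and 28.9% fell, 60.8% in all, so a call by itself is common in this experiment. A change of at least 2-fold in FPKM + 1 at an unadjusted *p* under 0.05 was rarer. It held for 1.13% of tested genes, with 0.75% upward and 0.384% downward, and *Tnfrsf11b* was among the former.

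*Tnfsf11* in MC3T3-E1 cells was 0.325, 0.536 and 0.529 FPKM in mock and 0.388, 0.217 and 0.388 FPKM in *Slpi*-overexpressing cells, 11 to 31 reads per library. The groups overlapped, and all 6 values were under the 1 FPKM that the test required. The means were 0.463 ± 0.1199 and 0.331 ± 0.0987 FPKM (SD, n = 3; exact permutation *p* = 0.3). Fitted without the filter, the log2 change was -0.14 (limma, adjusted *p* = 0.218).

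The ratio of *Tnfsf11* to *Tnfrsf11b* was lower in both treated groups. In replicates 1, 2 and 3 of the sorted osteoblasts it was 0.471, 0.589 and 0.445 with vehicle, against 0.188, 0.266 and 0.225 with PTH. The groups did not overlap, and the lowest vehicle library was 1.67-fold above the highest PTH library. The means were 0.501 ± 0.0766 and 0.226 ± 0.0394 (SD, n = 3), a 2.22-fold difference (exact permutation *p* = 0.1, the smallest possible). In other words, OPG transcripts outnumbered RANKL transcripts per length by 1.70- to 2.25-fold with vehicle and by 3.75- to 5.33-fold with PTH.

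In MC3T3-E1 cells the ratio was 0.0424, 0.0701 and 0.0770 in mock and 0.00896, 0.00413 and 0.00841 in *Slpi*-overexpressing cells. All 3 *Slpi* libraries were below all mock libraries, by 4.74-fold at the nearest. The means were 0.0632 ± 0.0183 and 0.00717 ± 0.00264 (SD, n = 3), an 8.81-fold difference (exact permutation *p* = 0.1). The numerator rests on the low *Tnfsf11* values above, so its size is uncertain.

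The same direction of the ratio arose from different members. In sorted osteoblasts the group mean of the log2 ratio changed by -1.15, of which *Tnfsf11* gave -0.87 and *Tnfrsf11b* the remainder, 75.9% and 24.1%. In MC3T3-E1 cells it changed by -3.17, of which *Tnfrsf11b* gave 84.3% and *Tnfsf11* 15.7%. These shares come from differences between group means of log2 FPKM and carry no test. PTH and *Slpi* were given to different cells, so the experiments cannot be set against each other by a test.

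**Figure D2:**
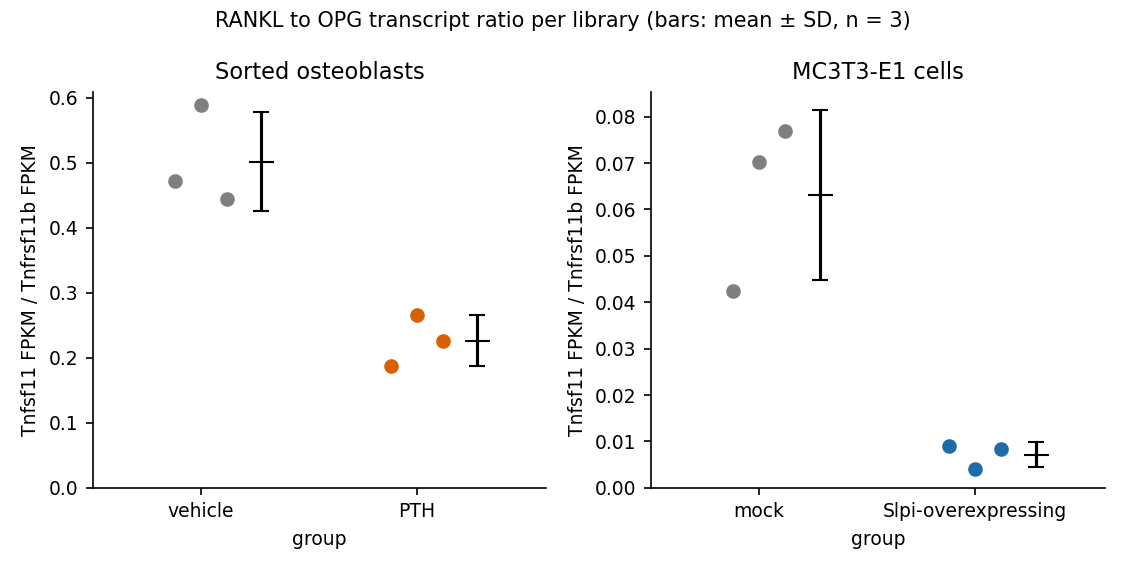
Ratio of *Tnfsf11* to *Tnfrsf11b* FPKM in each library (points) with mean and SD of the group (bars, n = 3), for sorted osteoblasts on the left and MC3T3-E1 cells on the right, on separate linear axes from 0. Treated and control libraries do not overlap in either panel, with means of 0.501 and 0.226 in sorted osteoblasts and 0.0632 and 0.00717 in MC3T3-E1 cells.

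*Csf1*, which encodes M-CSF, did not pass the test with PTH and fell by a small amount with *Slpi*. It lies at chr3:107741048-107760469 on the minus strand. In sorted osteoblasts it measured 16.8, 17.3 and 20.9 FPKM with vehicle and 20.9, 16.9 and 21.1 FPKM with PTH. The groups overlapped across nearly their whole range, with means of 18.3 ± 2.21 and 19.6 ± 2.37 FPKM (SD, n = 3). The log2 change was 0.09, with a 95% interval of -0.23 to 0.41 (adjusted *p* = 0.654).

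In MC3T3-E1 cells *Csf1* was the highest of the members, at 209.3, 209.8 and 214.1 FPKM in mock and 176.8, 159.9 and 174.3 FPKM in *Slpi*-overexpressing cells. The groups did not overlap, and the means were 211 ± 2.63 and 170.3 ± 9.15 FPKM (SD, n = 3). The log2 change was -0.31 (SE 0.0417, 95% interval -0.40 to -0.21; limma, adjusted *p* = 0.000327). Groups did not overlap for 67.1% of all tested genes, with *Slpi* lower for 32.2% and higher for 34.9%, and a fall of this size was under 2-fold.

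*Il34*, the other ligand of CSF1R, lies at chr8:110741829-110805924 on the minus strand and was the lowest member in sorted osteoblasts. It measured 0.414, 0.609 and 0.358 FPKM with vehicle and 0.370, 0.825 and 1.70 FPKM with PTH. It entered the test only through PTH replicate 3, and the values stand for about 4 to 5 and 4 to 25 reads. The log2 change was 0.38, with a wide 95% interval of -0.29 to 1.04 (adjusted *p* = 0.387). In MC3T3-E1 cells *Il34* was 2.91, 3.44 and 3.78 FPKM in mock and 3.22, 3.10 and 3.43 FPKM with *Slpi*. The groups overlapped, and the log2 change was -0.04 (95% interval -0.22 to 0.15, adjusted *p* = 0.703).

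*Il6*, the gp130 cytokine, lies at chr5:30013114-30019981 on the plus strand and varied most among the better expressed members. It measured 6.76, 4.97 and 4.65 FPKM with vehicle and 9.71, 10.6 and 3.81 FPKM with PTH. PTH replicates 1 and 2 were above all vehicle libraries and PTH replicate 3 was below them. The means were 5.46 ± 1.14 and 8.05 ± 3.71 FPKM (SD, n = 3), with a log2 change of 0.40 (SE 0.339, 95% interval -0.40 to 1.20, adjusted *p* = 0.439). Without PTH replicate 3 the log2 change was 0.80 and passed the test (adjusted *p* = 0.0333).

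PTH replicate 3 was also the PTH library with the lowest sums of macrophage and neutrophil markers. Summed FPKM of 5 macrophage genes was 103.4, 94.5 and 28.4 in PTH replicates 1, 2 and 3, against 33.3 to 60.6 with vehicle. Of these genes 0 of the 4 tested were called by limma (0 at an unadjusted *p* under 0.05). *Lyz2*, at 96.2, 86.4 and 22.9 FPKM in PTH replicates 1, 2 and 3, set most of that sum. *Cd68* was nearly level across the PTH libraries. *Csf1r*, *Mrc1* and *Fcgr1* were each lowest in PTH replicate 3 but reached at most 2.21 FPKM with PTH. Myeloid cells are a known source of IL-6 that the CD45 and lineage gate should remove. Their part in the *Il6* values was not tested. In MC3T3-E1 cells *Il6* was low and alike in both groups, at 0.754, 0.600 and 0.787 FPKM in mock and 0.764, 0.684 and 0.675 FPKM with *Slpi*. These were under the filter and were not tested in the fit (exact permutation *p* = 1).

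*Lgr4*, the receptor gene, lies at chr2:109917647-110014257 on the plus strand. It measured 17.2, 21.5 and 21.6 FPKM with vehicle and 22.2, 20.6 and 22.6 FPKM with PTH. The groups overlapped, with means of 20.1 ± 2.54 and 21.8 ± 1.03 FPKM (SD, n = 3) and a log2 change of 0.12 (95% interval -0.17 to 0.41, adjusted *p* = 0.512). In MC3T3-E1 cells it was 8.38, 7.44 and 7.73 FPKM in mock and 6.56, 6.58 and 7.01 FPKM with *Slpi*. Every *Slpi* library was below every mock library, and the log2 change was -0.20 (SE 0.0547, 95% interval -0.32 to -0.07; limma, adjusted *p* = 0.0138). At this threshold 28.9% of all tested genes fell (60.8% were called in all), and 32.2% were lower without overlap. The median absolute log2 change of all tested genes was 0.196, so a change of this size was common in this experiment. Without mock replicate 1, the highest library, the change of *Lgr4* was -0.15 and did not pass the test (adjusted *p* = 0.0532).

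**Figure D3:**
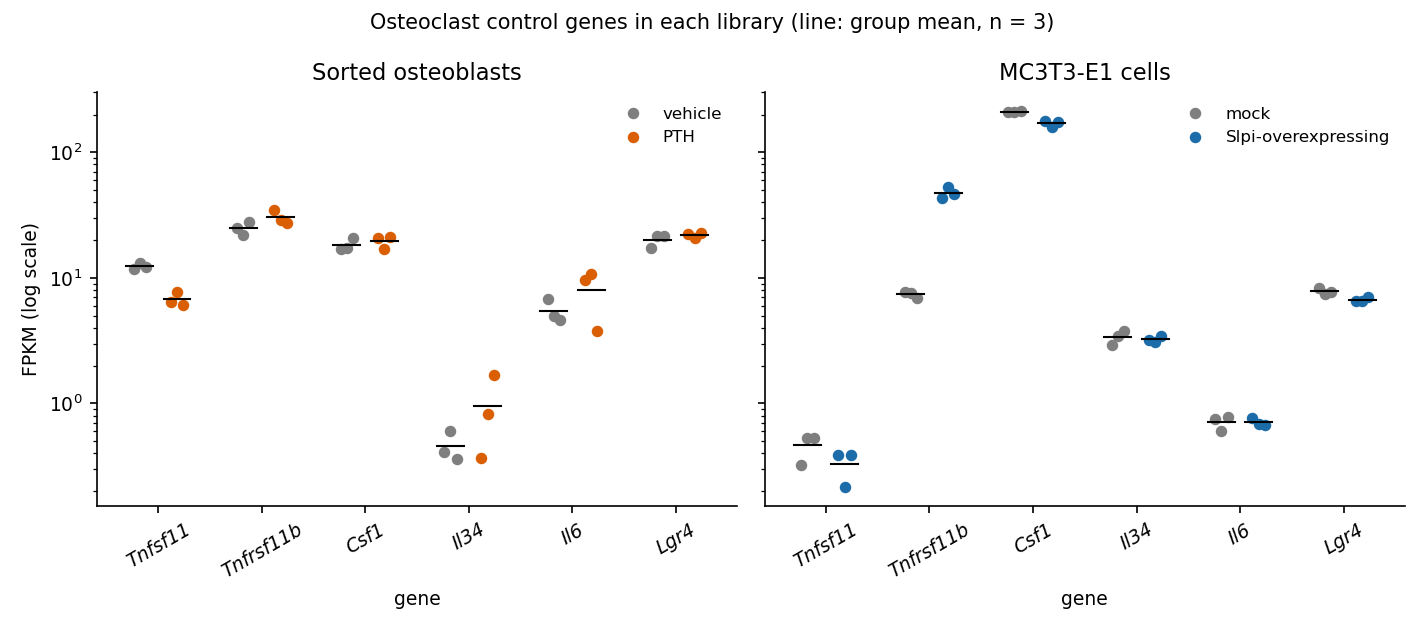
FPKM of the 6 members (vertical axis, log scale) in each library, with the group mean as a line (n = 3), for sorted osteoblasts on the left and MC3T3-E1 cells on the right. *Tnfsf11* is lower in every PTH library, and *Tnfrsf11b* is higher in every *Slpi*-overexpressing library, at 43.3 to 52.5 against 6.87 to 7.66 FPKM.

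The order of levels differed between the cell sources, which were normalised separately. In vehicle-treated osteoblasts *Tnfrsf11b* was highest, followed by *Lgr4* and *Csf1*, which overlapped, and then by *Tnfsf11*, *Il6* and *Il34*. With PTH the order was the same except that *Il6* and *Tnfsf11* changed places, with overlapping libraries. In mock cells *Csf1* was highest, followed by *Lgr4* and *Tnfrsf11b*, which overlapped, and by *Il34*, *Il6* and *Tnfsf11*. In *Slpi*-overexpressing cells *Tnfrsf11b* stood between *Csf1* and *Lgr4*, and no neighbours in the order overlapped.

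**Figure D4:**
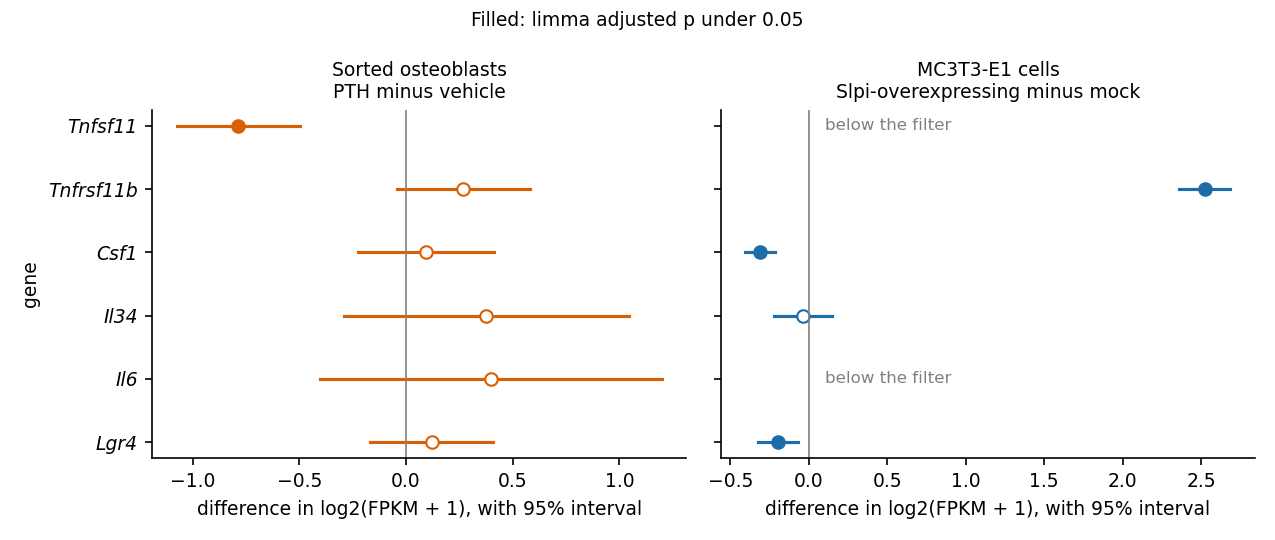
Difference in log2(FPKM + 1) for each member with its 95% interval (limma), PTH minus vehicle on the left and *Slpi*-overexpressing minus mock on the right, on axes of different range. Filled points passed an adjusted *p* under 0.05, which were *Tnfsf11* in sorted osteoblasts and *Tnfrsf11b*, *Csf1* and *Lgr4* in MC3T3-E1 cells. *Tnfsf11* and *Il6* were below the filter in MC3T3-E1 cells.

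The members were set among 56 genes that act on osteoclast formation, in 7 groups by role. In sorted osteoblasts 44 were tested, and 6 rose and 4 fell with PTH. This was 22.7% against 15.2% of all tested genes, and the median log2 change was 0.26 against 0.0066. The 50 genes other than the members gave 6 rises and 3 falls among 38 tested. By the rule of at least 2-fold in FPKM + 1 at an unadjusted *p* under 0.05, 2 listed genes rose and 2 fell. These were *Il1b* and *Ccl2* upward and *Tnf* and *Rnf43* downward, against 1.24% and 4.35% of all tested genes (5.59% in all). *Osm*, a gp130 cytokine gene, had a PTH mean 2.88-fold its vehicle mean in FPKM alone and did not meet the rule. *Ccl2*, a chemokine gene, and *Osm* were named after their values were seen. Leaving out vehicle replicate 1 or 2 left 0 calls by limma (16 and 15 at an unadjusted *p* under 0.05), leaving out PTH replicate 1 left 4, and the other left-out libraries left 7 to 9.

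Among hormone, prostaglandin and cytokine inputs to RANKL, 3 of 9 tested genes rose and 2 fell, where 6.38% of all tested genes rose and 8.85% fell. *Il1b*, which encodes interleukin-1β, rose from 2.30 ± 0.205 to 9.48 ± 2.16 FPKM (log2 change 1.64, adjusted *p* = 0.0133). It measured 10.7, 10.7 and 6.98 FPKM in PTH replicates 1, 2 and 3. Of 7 neutrophil markers 5 rose, and among the PTH libraries their sum was lowest in the same replicate 3. The part of neutrophils in the change of *Il1b* was not tested. *Ptgs2*, the inducible cyclooxygenase that makes prostaglandins, rose from 231 ± 14.7 to 358.5 ± 25.4 FPKM (log2 change 0.63, adjusted *p* = 0.0162). *Il1r1*, the interleukin-1 receptor, rose from 11.3 ± 0.0601 to 14.9 ± 0.848 FPKM (log2 change 0.38, adjusted *p* = 0.0476).

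The group also held both falls. *Tnf*, the inflammatory cytokine, measured 3.99, 6.20 and 2.57 FPKM with vehicle and 0.397, 0.796 and 0 FPKM with PTH (log2 change -1.89, adjusted *p* = 0.0184). T cells make TNF, and the T cell markers above moved the same way, a part that was not tested. *Vdr*, the vitamin D receptor, fell from 51.4 ± 3.17 to 34.1 ± 6.88 FPKM (log2 change -0.59, adjusted *p* = 0.0416). *Pth1r*, the PTH receptor, had overlapping groups of 97.5 ± 7.46 and 121.2 ± 22.9 FPKM (adjusted *p* = 0.200).

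Of the gp130 cytokines and receptors, 1 of 9 tested rose with PTH, a share near the 6.38% of all tested genes that rose. The gene called was *Il11*, whose product acts like IL-6 on bone, at 6.13, 6.75 and 6.39 FPKM with vehicle and 13.6, 11.4 and 12.3 FPKM with PTH (log2 change 0.86, SE 0.114, adjusted *p* = 0.0139). The groups lay far apart, unlike those of *Il6*. Of the other brakes on osteoclast formation, 2 of 7 tested rose, against the same 6.38%. *Tgfb1*, a growth factor with both promoting and restraining actions on osteoclasts, rose from 68.1 ± 3.07 to 110.6 ± 19.8 FPKM (log2 change 0.68, adjusted *p* = 0.0271). *Wnt16*, a WNT ligand that raises OPG, was named after its values were seen, with 3.15 ± 0.805 and 5.42 ± 0.576 FPKM (log2 change 0.64, adjusted *p* = 0.0483).

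The R-spondin and LGR group had 1 call among 4 tested genes, where 15.2% of all tested genes were called, and a group of 4 is too small to set against that share. *Rnf43*, a ubiquitin ligase that removes WNT receptors and is itself held back by R-spondin, measured 2.40, 2.66 and 1.54 FPKM with vehicle and 0.682, 0.517 and 0.0816 FPKM with PTH (log2 change -1.17, adjusted *p* = 0.0287). None of the 3 tested colony-stimulating factor genes and none of the 5 tested genes for recruitment of precursors was called by limma (0 and 1 at an unadjusted *p* under 0.05). *Tnfrsf11a*, the gene of RANK, was 0.905 ± 0.308 and 0.553 ± 0.490 FPKM (adjusted *p* = 0.458), so the receptor of RANKL was near the lower limit of detection in the sort. Of 8 osteoclast markers, 5 were below 1 FPKM in all 6 libraries, among them *Calcr* and *Dcstamp*. *Ctsk*, a protease gene that osteoblast-lineage cells also express, rose from 134.3 to 154.4 FPKM with vehicle to 225.1 to 282.3 with PTH (adjusted *p* = 0.0164). The other tested osteoclast markers did not pass the test and differed in sign. *Acp5* measured 8.31, 10.2 and 7.12 FPKM with vehicle and 27.4, 25.4 and 9.88 with PTH (log2 change 1.09, adjusted *p* = 0.0848), and *Mmp9* 11.4, 14.2 and 5.82 against 11.98, 8.34 and 2.32 FPKM (log2 change -0.56, adjusted *p* = 0.480).

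In MC3T3-E1 cells 34 of the 56 genes were tested, and 5 rose and 17 fell with *Slpi*. This was 64.7% against 60.8% of all tested genes, a share near the background. The median log2 change was -0.14 against 0.0041. By the rule of at least 2-fold in FPKM + 1 at an unadjusted *p* under 0.05, 2 genes rose, *Tnfrsf11b* and *Pth1r*, and 0 fell. In FPKM alone *Znrf3* rose 2.06-fold and *Sfrp1*, a listed brake, fell to 0.466 of its mock mean. Neither met the rule on its scale, and *Sfrp1* was named after its values were seen.

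*Pth1r* measured 15.6, 14.9 and 14.6 FPKM in mock and 78.5, 75.6 and 72.2 FPKM with *Slpi*, a 5.02-fold rise in means (log2 change 2.25, SE 0.0428, adjusted *p* = 3.2e-08). *Lifr*, the receptor of leukaemia inhibitory factor, rose from 21.4 ± 0.153 to 31.5 ± 0.503 FPKM (log2 change 0.54, adjusted *p* = 6.6e-06). *Znrf3*, the partner of *Rnf43* in removing WNT receptors, rose from 1.90 ± 0.108 to 3.92 ± 0.250 FPKM (log2 change 0.76, adjusted *p* = 3.4e-05). *Efnb2*, a membrane ligand by which osteoclasts and osteoblasts signal to each other, rose from 4.16 ± 0.245 to 5.53 ± 0.127 FPKM (log2 change 0.34, adjusted *p* = 0.000798).

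The 17 falls were led by *Vdr*. It fell from 77.0 ± 0.455 to 41.5 ± 1.81 FPKM (log2 change -0.88, adjusted *p* = 1.3e-06), and was lower in the treated group of both experiments. *Rspo2*, an R-spondin named after its values were seen, fell from 10.9 ± 0.971 to 5.63 ± 0.904 FPKM (log2 change -0.85, adjusted *p* = 0.000176). Of 5 genes for recruitment of precursors 4 fell, where 28.9% of all tested genes did. *Sphk1*, the kinase that makes sphingosine 1-phosphate, fell from 85.0 ± 2.19 to 48.8 ± 3.98 FPKM (log2 change -0.79, adjusted *p* = 1.4e-05). The chemokine gene *Ccl7* fell from 23.4 ± 0.406 to 14.7 ± 0.617 FPKM (log2 change -0.64, adjusted *p* = 8.8e-06).

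*Cxcl12*, a chemokine that holds precursors in marrow, fell from 70.5 to 73.8 FPKM in mock to 49.0 to 53.2 FPKM with *Slpi* (log2 change -0.49, adjusted *p* = 2.7e-05). *Il6st*, which encodes gp130, fell from 64.0 ± 0.571 to 51.8 ± 0.940 FPKM (log2 change -0.30, adjusted *p* = 7.0e-05). Of the RANKL axis all 5 tested genes were called, where 60.8% of all tested genes were, with *Tnfrsf11b* higher and *Lgr4*, *Adam10*, *Adam17* and *Mmp14* lower. The latter 3, named after their values were seen, encode proteases that shed RANKL from the cell, and their log2 changes were only -0.19, -0.14 and -0.14. *Tnf*, *Il1b* and *Tnfrsf11a* were listed at 0 in all 6 MC3T3-E1 libraries.

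**Figure D5:**
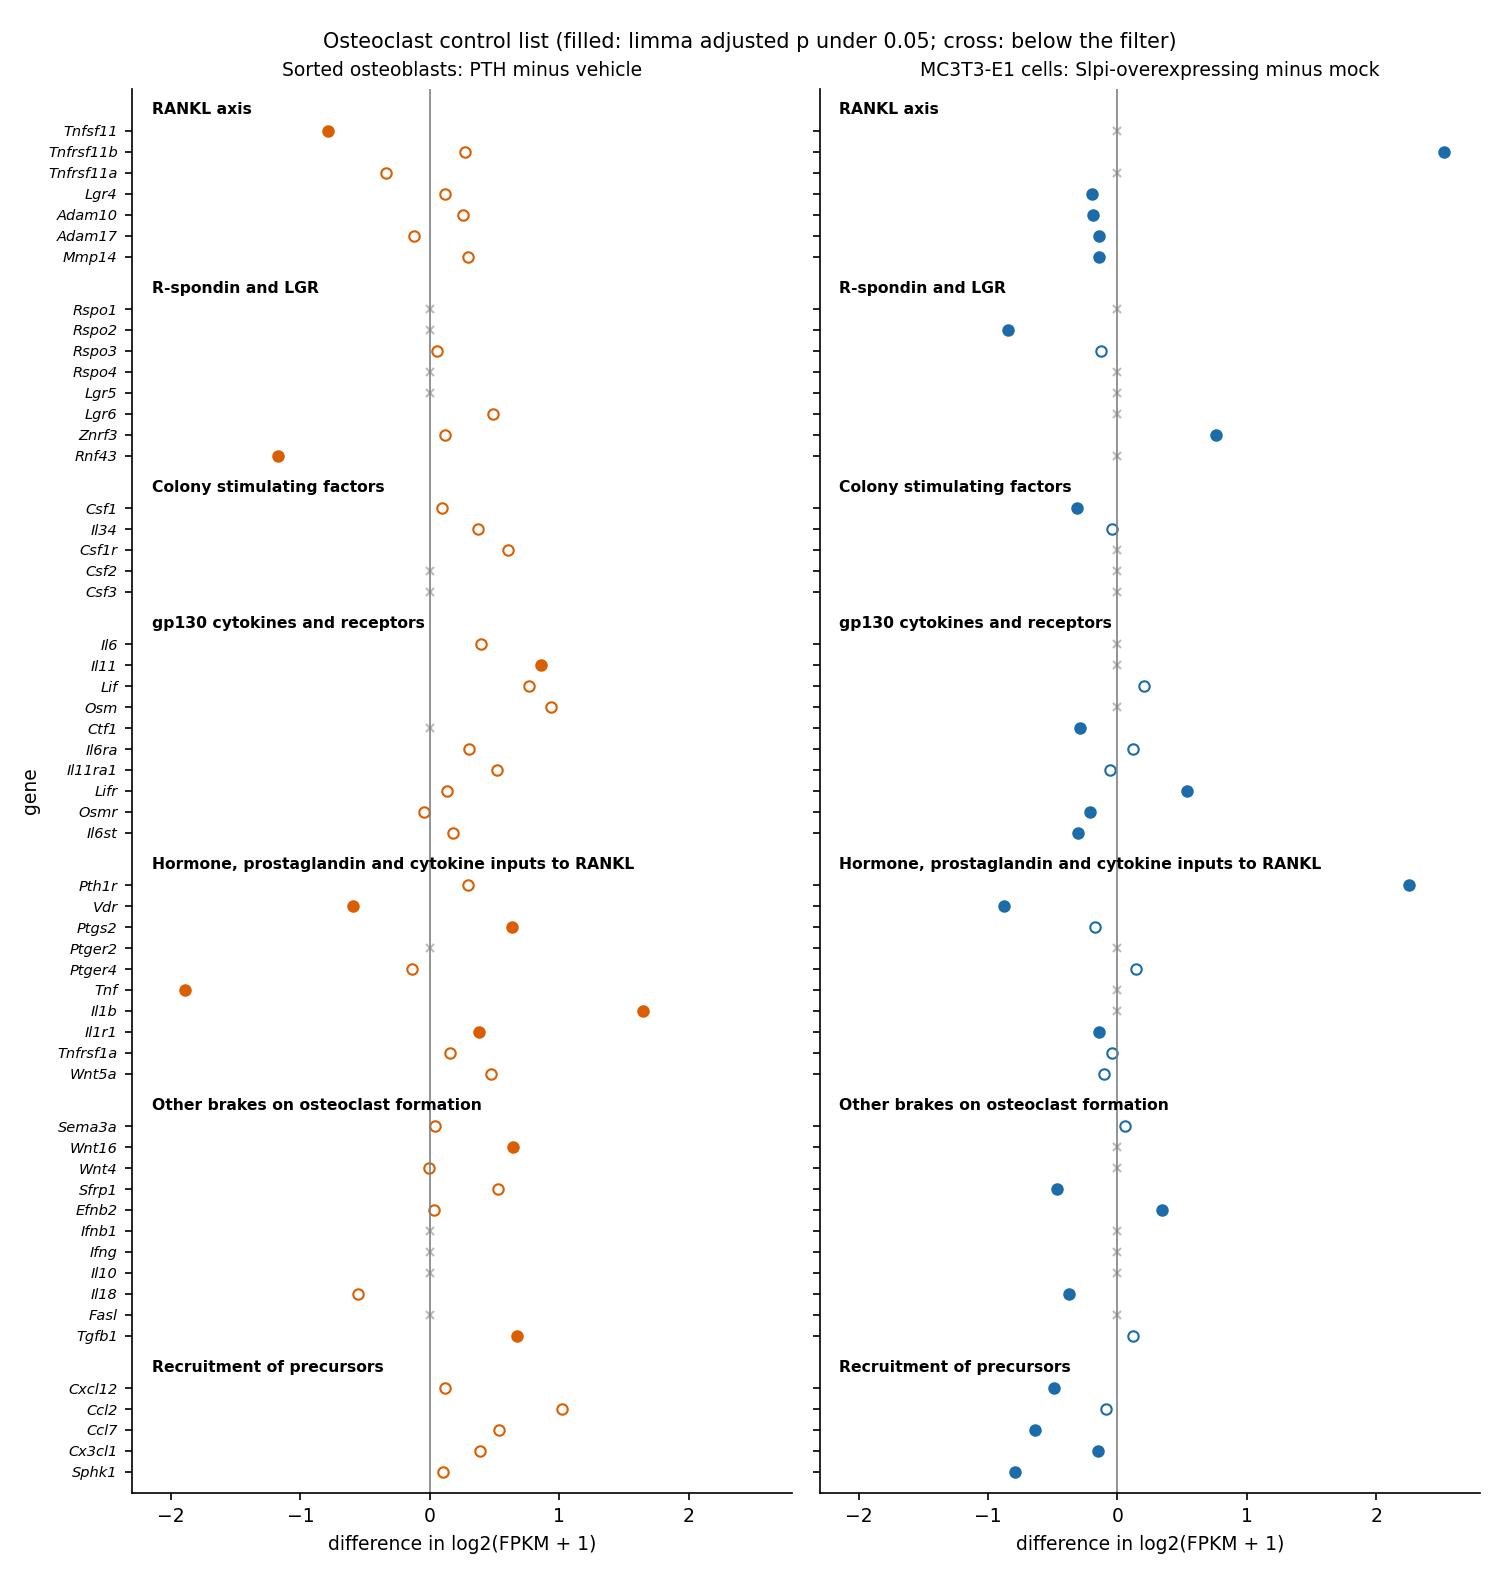
Difference in log2(FPKM + 1) for the 56 genes of the osteoclast control list by role, PTH minus vehicle on the left and *Slpi*-overexpressing minus mock on the right. Filled points passed a limma adjusted *p* under 0.05 (10 genes on the left, 22 on the right), open points did not, and grey crosses on the zero line mark genes below the filter, for which no difference was fitted. *Tnfrsf11b* and *Pth1r* stand apart on the right, at 2.52 and 2.25.

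Other genes followed the 2 central members most closely over the 6 libraries of each experiment, by the root mean square distance between centred log2(FPKM + 1) values. The libraries share the contrast between groups, so the correlations below are descriptions only. Nearest to *Tnfsf11* in sorted osteoblasts were *Fam84b* (distance 0.0439, Pearson's r 0.995), *Zfp940* (0.0576, r 0.993) and *Aqr* (0.0624, r 0.990). *Aqr*, a splicing factor gene with a level close to that of *Tnfsf11*, went from 10.2 ± 0.997 to 5.88 ± 0.943 FPKM. Nearest to *Tnfrsf11b* there were *Bnip3l* (0.0298, r 0.992), *Galnt11* (0.0412, r 0.983) and 3110052M02Rik (0.0432, r 0.974).

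In MC3T3-E1 cells the nearest to *Tnfrsf11b* were *Panx3* (0.0730, r 0.998), *Tnfrsf19* (0.0855, r 0.998) and *Dlx3* (0.119, r 0.997). *Panx3*, a channel gene of maturing osteoblasts and chondrocytes, went from 6.40 ± 0.191 to 41.5 ± 2.14 FPKM, almost the levels of *Tnfrsf11b*. *Tnfrsf19*, another receptor of the tumour necrosis factor family, went from 6.93 ± 0.407 to 42.1 ± 1.15 FPKM. *Dlx3*, a homeobox factor of osteoblast differentiation, went from 0.525 ± 0.0248 to 6.98 ± 0.745 FPKM. Nearest to the low *Tnfsf11* were *Zfp873* (0.0362, r 0.972), *Ttc30a1* (0.0370, r 0.952) and *Mitd1* (0.0384, r 0.944), with log2 changes between -0.19 and -0.10.

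Osteoblast markers rose in the same MC3T3-E1 libraries in which *Tnfrsf11b* rose. Of 7 such markers 5 rose and 1 fell, where 31.9% of all tested genes rose and 28.9% fell. *Ibsp*, which encodes bone sialoprotein, went from 37.9 to 42.5 FPKM in mock to 364.0 to 408.8 FPKM with *Slpi*. *Alpl*, alkaline phosphatase, went from 50.4 to 54.6 to 168.4 to 179.5 FPKM, and *Sp7*, the osteoblast transcription factor osterix, from 29.3 to 30.9 to 84.3 to 88.3 FPKM. *Spp1*, osteopontin, was the marker that fell (log2 change -0.39, adjusted *p* = 2.2e-05). Among the 6 osteocyte genes 4 were below 1 FPKM in every library and *Pdpn* fell, and the part of differentiation in the change of *Tnfrsf11b* was not tested.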

How the data were processed

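RNA-Seq was analysed for 12 libraries, 3 in each of 4 groups. The authors deposited FPKM per gene and library, calculated with Cuffnorm (Cufflinks 2.2.1) from 75-base single-end reads mapped to mm10 with TopHat 2.0.13, Bowtie2 2.2.3 and SAMtools 0.1.19, per the submitters' processing notes and the study's methods. The annotation and Cuffnorm scaling are not given in the sources used here. Labels name a stranded TruSeq kit for MC3T3-E1 and SMART-Seq v4 for sorted cells, while the methods name the latter for both. PTH replicate 3 was identified by its title.

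Each experiment was fitted alone, 3 against 3, without covariates. A gene was tested where any of the 6 libraries reached 1 FPKM. Its log2(FPKM + 1) was fitted in R 4.3.3 by limma 3.58.1, with eBayes along a trend, and *p* was adjusted by Benjamini-Hochberg (threshold 0.05). Fold changes on this scale understate changes of low genes. Ratios and single genes were compared by two-sided exact permutation tests (scipy 1.17.1, Python 3.11.15). On data simulated for 13004 and 11466 genes with 200 changed by a log2 change of 2, the fit recovered 187 with 16 false calls in the osteoblast design and 200 with 7 in the MC3T3-E1 design. All 200 were raised, with independent normal noise, and were drawn from genes with a control mean of log2(FPKM + 1) above 2. Falls, changes of lower genes and smaller changes, such as that of *Tnfsf11* with PTH, were not simulated. Read numbers are FPKM times transcript length (GENCODE M21) over the FPKM step of 1 read.

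The members and lists were chosen with earlier results of these data known. The named genes were the 6 members, at most 5 called list genes per direction and experiment by smallest *p*, and the 3 nearest genes to *Tnfsf11* and *Tnfrsf11b*. Alternatives were a replicate block, other filters, a pseudocount of 0.1, quantile normalization, eBayes without trend, a 2-fold rule and leaving out each library. Markers *Trac*, *Ly6g* and, in sorted cells, *Adgre1* did not match by symbol and were not analysed here. All 12 libraries entered the reported values.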

Additional observations from a re-analysis of the deposited data

How the results depend on the processing

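Of 164 recomputed values, 153 were rated the same. For a gene this meant its direction and side of the threshold. For the counts of called list genes it allowed some change, such as from 10 to 7 with PTH. For the ratio it meant the direction only, since its exact permutation *p* cannot go below 0.1. *Tnfsf11* in PTH-treated osteoblasts kept its direction throughout, from -0.87 to -0.72 over the left-out libraries, with adjusted *p* of 0.0208 to 0.0808, and 0.0139 to 0.0808 over all alternatives. It missed the threshold without vehicle replicate 1 (-0.82) or vehicle replicate 2 (-0.75). *Il6* ranged from 0.16 to 0.80 over left-out libraries and passed only without PTH replicate 3. *Lgr4* with *Slpi* ranged from -0.23 to -0.15 and missed the threshold without mock replicate 1. *Il34* with *Slpi*, not called in any fit, turned positive under quantile normalization (0.0020, adjusted *p* = 0.985) and without mock replicate 3 (0.028), and ranged from -0.12 to 0.03 over the left-out libraries. The osteoclast control list held 10 called genes with PTH, 0 to 9 with a library left out and 4 by the 2-fold rule. With *Slpi* it held 22, 20 to 23 with a library left out and 2 by the 2-fold rule. The ratio of *Tnfsf11* to *Tnfrsf11b* kept its direction in all 9 alternatives of each experiment, from -0.304 to -0.232 and from -0.0664 to -0.0491 over the left-out libraries.

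No pairing of same-numbered libraries is stated in the sources used here. Correlations of their deviations from the group means were 0.029, 0.073 and 0.102 in sorted osteoblasts and 0.039, -0.052 and -0.00026 in MC3T3-E1 cells. Between libraries of different number they ran from -0.116 to 0.069 and from -0.099 to 0.105. With 3 libraries per group such values cannot tell whether same-numbered libraries shared a batch. With the replicate number as a block (replicate block), 1028 genes rose and 1234 fell with PTH against 830 and 1151, the change of *Tnfsf11* was -0.79 (adjusted *p* = 0.0163), the list held 8 and 23 called genes, and no call on a member changed. The paired ratio gave *p* = 0.25 in both experiments, the smallest the exact sign-flip permutation of 3 pairs allows. *Tnfsf11* and *Il6* in MC3T3-E1 cells gave a value only without the filter, and *Il34* in sorted osteoblasts none under a mean FPKM of at least 1 or without PTH replicate 3. With 3 libraries per group, no single exact permutation test can go below 0.1, and *Il34* in sorted osteoblasts and *Tnfsf11* in MC3T3-E1 cells rest on few reads, 4 to 25 and 11 to 31 per library.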
